A study of Sus scrofa with 599 samples.

Results

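Mesenteric adipose (MAD), the fat that carries the vessels of the intestine, was compared with retroperitoneal adipose (RAD), the fat behind the peritoneum, in pigs that had gained weight. The members were chosen by their labels, as the samples of MAD and RAD in the weight-gain (WG) group, and not by any measured value. They were 75 of the 236 RNA-seq libraries of the series (36 MAD and 39 RAD) and 77 of its 240 Hi-C libraries (37 MAD and 40 RAD). The series covers 4 adipose tissues (ATs) of 2-year-old female Bama pigs, a Chinese miniature breed, and all groups shared sex and breed. WG pigs had eaten a high-fat diet for 22 weeks. Pigs on the normal condition (NC) ate a normal diet throughout, and weight-loss (WL) pigs had the same high-fat diet followed by 12 weeks at 10% of the normal caloric intake. The labels give no difference in genotype or drug between the groups. NC gave 12 and 12 and WL 10 and 10 RNA-seq libraries of MAD and RAD for comparison. Each RNA-seq library is a piece of whole tissue, so fewer cells of a type and less RNA per cell cannot be told apart. For Hi-C the paper lysed the upper layer that held the adipocytes, so the 2 assays did not sample the same cells. The paper took the 4 ATs from each carcass, so MAD and RAD share pigs. The deposited labels number the samples without saying which samples came from one pig. The main test therefore left the pairing out, and its p-values measure the spread between these samples as if they were separate animals.

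Estimated counts on protein-coding genes (PCGs) ranged from 4841230 to 22797044 per library in MAD and from 10179169 to 22426788 in RAD. PCGs took 65.6 to 96.4% of all TPM (expression scaled for transcript length and library depth) in MAD and 89.0 to 96.9% in RAD, with 2 MAD and 3 RAD libraries under 90%. No libraries held identical values. The adipocyte markers were high in both ATs: 13 of 14 listed adipocyte genes were in the table, none had a median of 0, and their summed level was 12680 to 28030 TPM (median 19570) in MAD and 15500 to 33800 TPM (median 23880) in RAD. Markers of neighbouring organs had low medians, with some libraries far higher. Of 13 pancreas genes in the table, 7, including PNLIP and CLPS, had a median of 0 and the sum was 3.32 to 25.3 TPM in MAD and 4.27 to 25.4 TPM in RAD. Of 12 intestinal epithelial genes, 3 (CDX2, SI and TFF3) had a median of 0, and the sum was 1.77 to 48.0 TPM in MAD and 0.920 to 74.5 TPM in RAD. Of 17 kidney and adrenal genes, 6 had a median of 0, and the sum was 21.5 to 822 TPM in MAD (median 34.7) and 22.3 to 182 TPM in RAD (median 37.99). Of 11 mesothelial genes, CALB2 had a median of 0, and the sum was 10.6 to 112 TPM in MAD and 4.92 to 197 TPM in RAD.

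Fat depots arise from different parts of the embryonic mesoderm. The mesentery forms from the splanchnic mesoderm around the gut tube, where factors such as NKX2-3, TCF21 and HAND2 act, and the back of the body wall forms from the somites and the lateral plate. Adult fat cells and their progenitors keep the HOX genes and other patterning factors that were set at the place of origin. The promoters of 4 such factors are shown as examples of DEGs of both directions described below, and they are not the 4 largest differences. Each sequence is the 250 bases before the RefSeq transcription start in Sscrofa11.1, written 5′ to 3′ on the strand of the gene, and capitals mark the matches of 4 motifs searched on both strands, none of which contains another. These were the TATA box (TATAAA), the CCAAT box, the GC box (GGGCGG) and the homeodomain core (TAATTA).
NKX2-3 (chr14:110720134-110720383, plus strand): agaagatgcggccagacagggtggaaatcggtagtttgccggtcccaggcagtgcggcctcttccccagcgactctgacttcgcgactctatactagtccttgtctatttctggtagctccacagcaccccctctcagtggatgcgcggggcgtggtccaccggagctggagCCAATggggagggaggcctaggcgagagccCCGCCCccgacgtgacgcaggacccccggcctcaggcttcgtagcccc
TCF21 (chr1:29978274-29978523, minus strand): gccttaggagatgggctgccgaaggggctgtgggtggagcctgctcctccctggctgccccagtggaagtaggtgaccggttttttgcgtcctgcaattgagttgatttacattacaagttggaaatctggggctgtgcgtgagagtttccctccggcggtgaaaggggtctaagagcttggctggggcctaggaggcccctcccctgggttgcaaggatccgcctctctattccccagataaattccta
EN1 (chr15:24408378-24408627, minus strand): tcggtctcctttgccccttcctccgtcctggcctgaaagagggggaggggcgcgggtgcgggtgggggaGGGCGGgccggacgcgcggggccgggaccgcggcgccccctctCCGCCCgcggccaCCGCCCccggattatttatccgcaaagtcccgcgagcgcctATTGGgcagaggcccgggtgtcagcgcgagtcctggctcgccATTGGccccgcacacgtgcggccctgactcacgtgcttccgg
HOXD8 (chr15:81930673-81930922, plus strand): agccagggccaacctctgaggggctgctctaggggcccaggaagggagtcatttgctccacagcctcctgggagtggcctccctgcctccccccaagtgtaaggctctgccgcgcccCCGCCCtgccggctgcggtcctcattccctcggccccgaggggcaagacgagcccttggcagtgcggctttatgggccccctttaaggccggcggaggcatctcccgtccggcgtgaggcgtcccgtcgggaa

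The same window was searched in 13521 pig promoters. The TATA box was found in 7.995% of them, the CCAAT box in 31.8%, the GC box in 53.1% and the homeodomain core in 3.26%. NKX2-3 held 1 CCAAT box and 1 GC box, EN1 held 2 and 3, HOXD8 held 1 GC box, and TCF21 held none of the 4 motifs. The window of EN1 held 32 CpG dinucleotides, those of NKX2-3 and HOXD8 held 18 and 17, and that of TCF21 held 7, against a median of 14 over all promoters. A match is a string of letters only.

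To find which genes distinguished the ATs, expression was tested among 13548 PCGs detected in at least 1 of them. A differentially expressed gene (DEG) differed more than 1.5-fold with an adjusted p under 0.05 (edgeR, quasi-likelihood test). There were 732 DEGs, or 5.4% of the PCGs tested. MAD was the higher AT for 495 (3.65%) and RAD for 237 (1.75%). The median log2 fold change of RAD over MAD was -0.91 among the first and 0.91 among the second. Most differences were moderate: 105 DEGs of RAD and 210 of MAD exceeded 2-fold, and 7 and 15 exceeded 8-fold. The largest belonged to transcription factors, and 13 PCGs (0.096%) had ranges that did not overlap between the 36 MAD and the 39 RAD libraries.

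Some factors of the gut mesoderm were higher in MAD. Of 12 factors of the gut and visceral mesoderm that were tested, 6 were higher in MAD, 0 in RAD and 6 were not called, with a median log2 fold change of -0.61 against -0.0056 over all PCGs. NKX2-3, a homeobox factor of the gut and spleen mesenchyme, lay between 1.52 and 13.1 TPM in MAD (median 6.97) and between 0 and 0.165 TPM in RAD (median 0). All 36 MAD libraries were above all 39 RAD libraries. The log2 fold change was -8.02 ± 0.25 (SE, adjusted p = 4.42e-42), the largest of all DEGs. With most RAD libraries at 0, the size of this fold depends on the fit, and its direction does not. TCF21, a factor of visceral mesenchyme and fat progenitors, was measured at 3.38 to 21.8 TPM in MAD (median 8.33) and 0 to 0.852 TPM in RAD (median 0.371). It also separated the ATs without overlap (log2 fold change -4.61 ± 0.20, adjusted p = 4.15e-33). NKX3-2, which acts in the stomach wall and the axial skeleton, did so at a lower level, with medians of 1.23 TPM in MAD and 0 in RAD (log2 fold change -5.02 ± 0.29, adjusted p = 6.5e-25). HAND2, a factor of the splanchnic mesoderm and the heart, overlapped slightly: it ranged from 1.68 to 9.22 TPM in MAD and from 0.0895 to 3.50 TPM in RAD, and 32 MAD libraries exceeded the highest RAD library (log2 fold change -2.28 ± 0.20).

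Some factors of the body wall were higher in RAD. Of 12 such factors tested, 4 were higher in RAD, EN1, TBX5 and TBX18 among them, 2, TBX1 and SIX2, were higher in MAD, and 6 were not called. The median log2 fold change of the 12 was 0.23. EN1, a homeobox factor of the dermis and limb, lay between 0 and 1.08 TPM in MAD (median 0.316) and between 1.87 and 8.25 TPM in RAD (median 3.95). The ranges did not overlap between the ATs, and the log2 fold change was 3.43 ± 0.18 (adjusted p = 2.27e-27). TBX5, a T-box factor of the forelimb and heart field, had medians of 0.159 TPM in MAD and 1.72 TPM in RAD (log2 fold change 2.57 ± 0.26), and TBX18, found in somites and the epicardium, 6.78 and 14.2 TPM (1.14 ± 0.11). TBX1, a T-box factor of the pharyngeal region, and SIX2, a factor of kidney and head mesenchyme, went the other way, with log2 fold changes of -3.09 ± 0.24 and -2.60 ± 0.21. The intermediate mesoderm factors EMX2 (1.15 ± 0.24) and SIX4 (0.71 ± 0.12) were higher in RAD. In addition, 5 genes outside the naming rule did not overlap between the ATs and were chosen after their values were seen. One of them, higher in MAD, has no symbol (-5.55). Of the others, ALX1, a craniofacial homeobox factor, was higher in RAD (log2 fold change 7.31 ± 0.26), and PRDM6, a smooth muscle repressor (-4.67 ± 0.24), ISL2, a motor neuron factor (-5.95 ± 0.25) and FAIM2, an inhibitor of apoptosis (-3.23 ± 0.17), were higher in MAD.

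**Figure D1:**
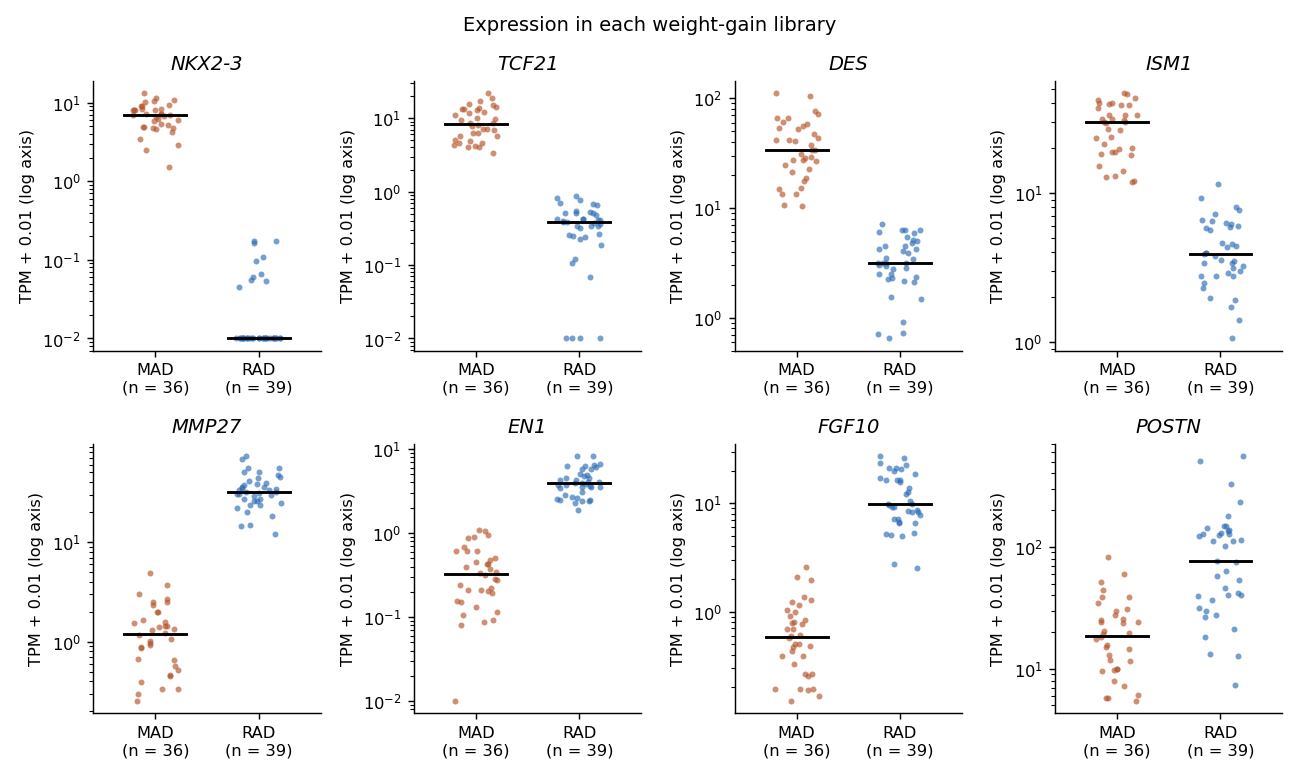
Expression of 8 genes in each WG library, as TPM + 0.01 on log axes; each point is 1 library, MAD (n = 36) or RAD (n = 39), and the bars are medians. NKX2-3, TCF21, DES and ISM1 sit wholly higher in MAD and MMP27 and EN1 wholly higher in RAD, while 38 of 39 RAD libraries exceed the highest MAD library for FGF10 and 19 of 39 do so for POSTN.

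HOX genes of all 4 clusters differed between the ATs. HOX genes are numbered along each cluster in the order in which they are switched on from head to tail. Of 7 HOXA genes tested, 2 were higher in MAD, HOXA2 among them, and 2, HOXA9 and HOXA10, in RAD. HOXA2 ranged from 0.0502 to 3.51 TPM in MAD (median 1.02) and from 0 to 1.03 TPM in RAD (median 0.238), a log2 fold change of -1.77 ± 0.24 (adjusted p = 8.46e-09). HOXA9 ranged from 0.444 to 17.1 TPM in MAD (median 1.25) and from 6.47 to 20.1 TPM in RAD (median 12.1), a log2 fold change of 2.44 ± 0.23 (adjusted p = 3.32e-14). Of 7 HOXB genes, 5 (HOXB3, HOXB4, HOXB5, HOXB6 and HOXB8) were higher in MAD and 0 in RAD, and all 7 had a log2 fold change below 0 (median -0.80). HOXB6, the most abundant of the 5, lay between 8.19 and 31.2 TPM in MAD and between 3.58 and 12.4 TPM in RAD, with 32 MAD libraries above the highest RAD library (log2 fold change -0.92 ± 0.09). In HOXC, HOXC4 and HOXC5 were higher in MAD (-0.68 ± 0.20 and -0.63 ± 0.16) and HOXC9 in RAD (1.67 ± 0.21) among 5 genes tested. All 4 HOXD genes tested were higher in RAD. HOXD8 ranged from 6.04 to 48.3 TPM in MAD (median 14.9) and from 23.1 to 79.6 TPM in RAD (median 51.6), with a log2 fold change of 1.54 ± 0.15 (adjusted p = 5.65e-14). HOXD3 (1.35 ± 0.20), HOXD4 (0.96 ± 0.13) and HOXD9 (0.64 ± 0.16) shared its direction.

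HOXA10 set 4 MAD libraries apart. It was above 1 TPM in 39 of 39 RAD libraries, where it ranged from 2.12 to 8.28 TPM (median 4.85), and in 4 of 36 MAD libraries, where the median was 0.0193 TPM. These were replicates 39, 27, 46 and 12, with values from 1.07 to 12.6 TPM. The first 3 also had HOXA9 at 17.1, 7.38 and 10.1 TPM, within the range of RAD. NKX2-3 stood at 8.02, 3.45, 8.36 and 2.50 TPM in the 4 libraries, all above the highest RAD library, and EN1 at 0.106, 0.192, 1.05 and 0.887 TPM, all below the lowest. Replicate 39 had in addition 34.3 TPM of the transporter gene SLC16A12, against a median of 0.828 TPM in MAD. Without replicate 39, a setting chosen after seeing the data, the log2 fold change of HOXA10 was 3.07 and not 2.47, and that of SLC16A12 was 3.14 and not 2.23. LRP2, a receptor of the kidney tubule and of other epithelia, was called higher in MAD (log2 fold change -1.87, adjusted p = 0.030) with this library and turned to 0.55 (adjusted p = 0.481) without it.

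**Figure D2:**
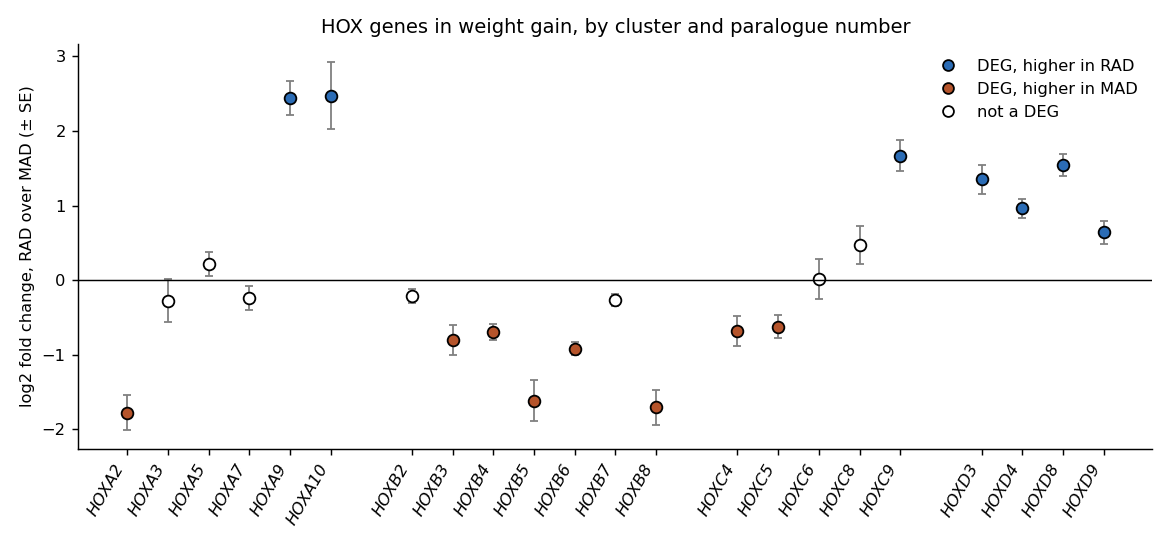
Log2 fold change of RAD over MAD (± SE) of HOX genes in WG, in the order of cluster and paralogue number; filled points are DEGs and open points are not. The HOXB genes lie below 0, the 4 HOXD genes lie above 0, and HOXA and HOXC hold DEGs of both directions.

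Secreted signals also differed. FGF10, a growth factor for fat progenitors and epithelia, ranged from 0.139 to 2.60 TPM in MAD (median 0.572) and from 2.52 to 27.4 TPM in RAD (median 9.79). Only 1 RAD library fell within the range of MAD, and the log2 fold change was 4.06 ± 0.23 (adjusted p = 2.86e-25). In MAD, the higher signals included regulators of the BMP and WNT pathways. GREM1, a secreted BMP antagonist, lay between 13.99 and 105.7 TPM in MAD (median 33.2) and between 0.691 and 18.04 TPM in RAD (median 4.59), with a log2 fold change of -3.05 ± 0.24 (adjusted p = 8.92e-18). The BMP family member GDF6 (-2.10 ± 0.28) and the antagonist CHRD (-0.72 ± 0.15) were the other DEGs among 17 BMP and activin genes, all 3 higher in MAD. Of 17 WNT ligands and secreted inhibitors, 7 were higher in MAD and 2 in RAD, with a median log2 fold change of -0.45. RSPO1, an enhancer of WNT signalling, ranged from 1.93 to 9.12 TPM in MAD and from 0 to 1.94 TPM in RAD, and 35 of 36 MAD libraries exceeded every RAD library (-2.30 ± 0.15). The ligands WNT5A (-1.85 ± 0.17) and WNT2B (-1.23 ± 0.14) and the enhancer RSPO3 (-1.27 ± 0.22) shared its direction. WNT2 (0.78 ± 0.24) and the inhibitor SFRP4 (1.38 ± 0.19) were higher in RAD.

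Retinoic acid genes were called in both directions. ALDH1A2, an enzyme that makes retinoic acid, was higher in MAD, with a median of 46.9 TPM against 22.7 TPM (log2 fold change -0.97 ± 0.12). ALDH1A1, an enzyme of the same family, the carrier CRABP2 and the degrading enzyme CYP26B1 were higher in RAD. CRABP2 ranged from 0 to 1.59 TPM in MAD (median 0.301) and from 0.499 to 16.5 TPM in RAD (median 3.44), and its log2 fold change was 3.32 ± 0.30 (adjusted p = 2.01e-15). In all, 4 of 15 retinoic acid genes were higher in RAD, 1 in MAD and 10 were not called (median log2 fold change -0.05). The fourth gene of RAD, RARRES1, lost its call without MAD replicate 19 (log2 fold change 0.57, adjusted p = 0.0598) or 39 (0.59, adjusted p = 0.0625).

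Collagens of the fibrillar and type VI list and metalloproteinases were higher in RAD more often than in MAD. This did not hold for 18 basement membrane genes, with 0 higher in RAD and 1 in MAD, near the 5.4% called over all PCGs tested. Of 22 fibrillar and type VI collagens and their partners, 7 were higher in RAD and 2 in MAD, with a median log2 fold change of 0.25. COL1A2, a chain of type I collagen, lay between 104.0 and 657 TPM in MAD (median 248) and between 284 and 1654 TPM in RAD (median 690). The ranges overlapped, but 22 RAD libraries exceeded the highest MAD library (log2 fold change 1.41 ± 0.15, adjusted p = 6.62e-12). COL1A1, the other chain, had a log2 fold change of 1.54 ± 0.33. POSTN, a matricellular protein of remodelling tissue, was the most variable: 5.41 to 83.2 TPM in MAD (median 18.6) and 7.36 to 556 TPM in RAD (median 76.4), a log2 fold change of 2.33 ± 0.29 (adjusted p = 8.52e-10). TNC, a similar protein, had medians of 3.78 and 13.8 TPM (1.68 ± 0.24). The type VI chain COL6A5 (-1.28 ± 0.21) and the crosslinking enzyme LOXL1 (-0.79 ± 0.12) were higher in MAD. Among 17 matrix metalloproteinases and inhibitors, MMP27, a little studied member, was the gene that separated the ATs most: 0.243 to 4.94 TPM in MAD (median 1.19) and 11.9 to 73.2 TPM in RAD (median 32.2). All 39 RAD libraries were above all 36 MAD libraries (log2 fold change 4.64 ± 0.21, adjusted p = 1.43e-31). MMP2, a gelatinase, was also higher in RAD (0.82 ± 0.17), and MMP16 was higher in MAD (-0.81 ± 0.13).

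Of 19 progenitor markers tested, 3 were higher in each AT and 13 were not called. PI16, a marker of the early, interstitial progenitors, ranged from 132.5 to 852 TPM in MAD (median 391) and from 26.4 to 256 TPM in RAD (median 75.6). It reached above the highest RAD library in 28 MAD libraries, and its log2 fold change was -2.07 ± 0.17 (adjusted p = 8.26e-17). DPP4 (-0.89 ± 0.17) and MFAP5 (-0.87 ± 0.21), markers of the same population, were higher in MAD as well. In RAD, the higher genes were FMO2, APOD and SFRP4. FMO2, a monooxygenase, ranged from 22.9 to 67.9 TPM in MAD and from 38.4 to 214 TPM in RAD, and 36 RAD libraries exceeded every MAD library (log2 fold change 1.63 ± 0.11). APOD, an apolipoprotein of fibroblasts, had medians of 60.4 and 187 TPM (1.56 ± 0.19). ISM1, a secreted protein also called isthmin-1, was higher in MAD without overlap, at 11.9 to 46.5 TPM against 1.05 to 11.4 TPM (-2.61 ± 0.15, adjusted p = 1.08e-25).

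Of 12 adipocyte identity genes, LEP was higher in RAD and PCK1 in MAD, and the other 10 were not called (median log2 fold change 0.12). LEP, the hormone leptin, ranged from 77.9 to 805 TPM in MAD (median 322) and from 189.5 to 1110 TPM in RAD (median 547), a log2 fold change of 0.73 ± 0.14 (adjusted p = 4.25e-05). PCK1, the enzyme of glyceroneogenesis, ranged from 20.5 to 712 TPM in MAD (median 68.6) and from 4.79 to 213 TPM in RAD (median 43.9), a log2 fold change of -1.01 ± 0.27 (adjusted p = 0.00387). Both overlapped widely. The summed level of the adipocyte list exceeded the highest MAD library in 9 of 39 RAD libraries. Of 17 adipokines, 4 were higher in RAD, LEP, APLN and FGF10 among them, 5 were higher in MAD and 8 were not called (median log2 fold change 0.22). Those of MAD included the growth factors FGF1 (log2 fold change -1.37 ± 0.18) and FGF9 (-0.82 ± 0.17), the proteoglycan OGN (-0.84 ± 0.14) and CCN4 (-1.15 ± 0.19), and APLN, the hormone apelin, was at 1.12 ± 0.16. ADIPOQ, the hormone adiponectin, and PLIN1, the coat protein of lipid droplets, had log2 fold changes of 0.10 ± 0.15 and 0.01 ± 0.10. PPARG, the master factor of fat cell formation, was at 92.8 to 319 TPM in MAD (median 177) and 100.3 to 376 TPM in RAD (median 233). Its log2 fold change of 0.37 ± 0.10 (adjusted p = 0.00294) stayed under 1.5-fold, so it was not a DEG.

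The lists of lipid metabolism held 0 or 1 DEG each. Over all PCGs tested 5.4% were called, so counts in lists of this size do not set them apart from that share. None of 16 lipolysis, 13 fatty acid uptake and 18 cholesterol genes was a DEG by edgeR. Lists of triglyceride synthesis (13 genes) and fatty acid oxidation (18 genes) held 1 call each, higher in MAD. The cholesterol genes had a median log2 fold change of 0.33, and 17 of the 18 were above 0. Of 15 genes of de novo lipogenesis, only SCD, the desaturase, was called, with medians of 1359 TPM in MAD and 2647 TPM in RAD (0.94 ± 0.28). The lipid droplet protein HILPDA was the only one of 10 called (1.22 ± 0.24). FBP2, a fructose bisphosphatase, was higher in RAD (1.23 ± 0.19), and its relative FBP1 was higher in MAD (-0.60 ± 0.17), a call that was lost without MAD replicate 39 (log2 fold change -0.42). GRB14, an adaptor that inhibits the insulin receptor, was the only DEG among 17 insulin signalling genes. It ranged from 1.84 to 19.4 TPM in MAD (median 7.96) and from 0.390 to 3.44 TPM in RAD (median 1.03), with a log2 fold change of -2.57 ± 0.18 (adjusted p = 4.69e-21). PPARGC1A, a coactivator of mitochondrial genes, was called higher in MAD (-1.03 ± 0.32), but its highest MAD library reached 50.0 TPM at a median of 1.47 TPM, and the call was lost without replicate 39 (-0.31, adjusted p = 0.428). Of 31 nuclear genes of the respiratory chain 0 were DEGs, with 30 above 0 and a median of 0.16, and of 12 mitochondria-encoded genes 0 were DEGs, with all 12 below 0 and a median of -0.49.

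**Figure D3:**
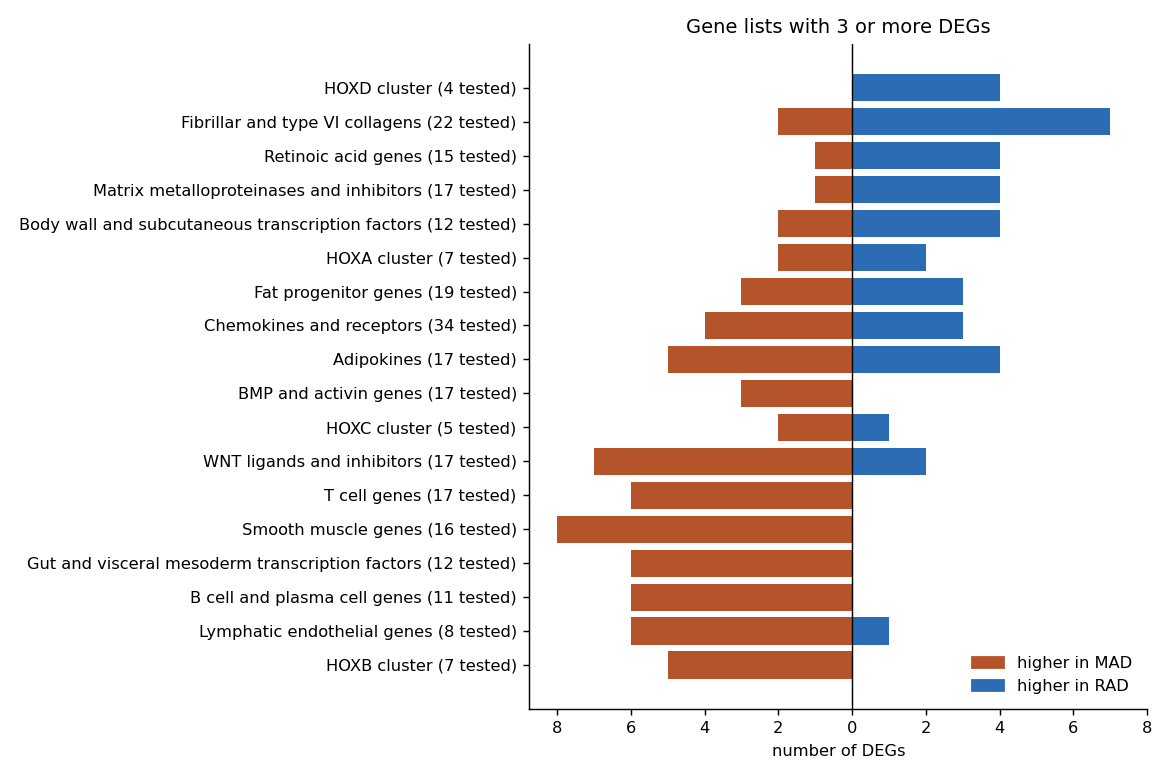
Number of DEGs higher in MAD (bars to the left of 0) and higher in RAD (to the right) for each gene list with 3 or more DEGs, with the number of genes tested beside its name. Smooth muscle, lymphatic, B cell, T cell, HOXB and gut mesoderm genes lean to MAD, and HOXD, retinoic acid and collagen genes lean to RAD.

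Markers of several other cell types were tested. Smooth muscle genes were higher in MAD in 8 of 16 cases and in RAD in 0, and all 16 log2 fold changes were below 0 (median -0.71). DES, the intermediate filament desmin, lay between 10.3 and 111 TPM in MAD (median 33.7) and between 0.635 and 7.12 TPM in RAD (median 3.15). It did not overlap between the ATs (log2 fold change -3.47 ± 0.19, adjusted p = 2.89e-26). ACTG2, the actin of visceral smooth muscle, had medians of 26.4 and 2.35 TPM (-2.92 ± 0.27), CNN1, calponin, 47.6 and 14.03 TPM (-1.65 ± 0.17), and MYH11, smooth muscle myosin, 93.8 and 48.0 TPM (-1.28 ± 0.20). The sum of the list ranged from 883 to 2794 TPM in MAD (median 1616) and from 717 to 1857 TPM in RAD (median 1131), and 13 MAD libraries exceeded the highest RAD library. Whether the amount of muscle cells moves the other genes of MAD was not tested.

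Lymphatic endothelial genes were higher in MAD. Of 8 tested, 6 were higher in MAD and 1, ANGPT2, in RAD, with a median log2 fold change of -1.82. FLT4, the receptor of the lymphatic growth factor VEGF-C, ranged from 3.24 to 21.6 TPM in MAD (median 8.17) and from 0.613 to 5.04 TPM in RAD (median 2.01). It exceeded the highest RAD library in 32 MAD libraries (log2 fold change -1.97 ± 0.16, adjusted p = 1.49e-17). RELN (-2.14 ± 0.20), MMRN1 (-2.11 ± 0.28), CCL21 (-2.0 ± 0.40), PROX1, the master factor of lymphatic vessels (-1.67 ± 0.26), and LYVE1 (-0.85 ± 0.18) shared the direction. The sum of the list, in which TFF3 had a median of 0, ranged from 83.1 to 897 TPM in MAD (median 229) and from 45.2 to 320 TPM in RAD (median 101). Blood endothelial genes differed from them: 0 of 19 were DEGs, with a median of 0.16.

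Some genes of B and T lymphocytes were higher in MAD, in part through 1 library. Of 11 B cell and plasma cell genes, 6 were higher in MAD and 0 in RAD (median log2 fold change -1.26). MS4A1, the B cell antigen CD20, ranged from 0.0730 to 136 TPM in MAD (median 1.18) and from 0.140 to 1.51 TPM in RAD (median 0.559), and JCHAIN, the joining chain of antibodies, from 12.4 to 3610 TPM (median 33.5) and from 7.61 to 50.5 TPM. The medians of MS4A1 differed by far less than the maxima. The sum of the B cell list was 38.2 to 4098 TPM in MAD (median 73.7) and 30.5 to 84.2 TPM in RAD (median 48.5), and 14 of 36 MAD libraries exceeded the highest RAD library. Without MAD replicate 31, which held the highest sum, 5 B cell genes stayed called and the median of the list was -0.42. The log2 fold change then moved from -3.22 to -1.59 for MS4A1, from -3.04 to -1.33 for JCHAIN and from -2.91 to -1.43 for CD79B. It moved from -1.46 to -0.73 for POU2AF1, and MZB1 lost its call (-0.42, adjusted p = 0.150). Of 17 T cell genes, 6 were higher in MAD and 11 were not called (median -0.52), and 2 without replicate 31 (median -0.29). With limma on log2(TPM + 1) or log2(TPM + 0.1), 1 T cell gene was called, and the B cell list had 3 and 5 calls. The median of the B cell list was -0.40 with DESeq2. CD3E, a chain of the T cell receptor complex, was at -0.72 ± 0.19 with all libraries and -0.57 without it. The T cell sum ranged from 59.0 to 650 TPM in MAD (median 118) and from 59.5 to 155 TPM in RAD (median 99.2). Of 14 proliferation genes, TOP2A and CCNB1 were higher in MAD, and 0 without replicate 31 by edgeR, where their adjusted p values were 0.0675 and 0.154. Macrophage, MHC class II, interferon and complement genes gave 1 of 16, 0 of 6, 0 of 22 and 0 of 15 DEGs by edgeR, where 5.4% of all PCGs tested were called.

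Chemokines moved in both directions. RAD had more CCL4 (1.25 ± 0.16), CCL3L1 (1.03 ± 0.23) and CXCL2 (0.87 ± 0.16), attractants of monocytes and neutrophils, and MAD had more CCL21, CCL26 (-1.32 ± 0.26), CCL5 (-0.63 ± 0.14) and the receptor CCR7 (-1.07 ± 0.23) among 34 genes tested. CCL4 ranged from 5.31 to 47.8 TPM in MAD (median 12.9) and from 12.5 to 101 TPM in RAD (median 30.6). Transcripts of liver proteins, a list chosen after its values were seen, were also present. The sum of 12 such genes was 79.0 to 2038 TPM in MAD (median 221) and 114 to 3704 TPM in RAD (median 270). By edgeR, ALB, SERPINC1 and TF were called higher in RAD (ALB log2 fold change 1.67, adjusted p = 0.0352). APOA1, FGB, FGG, TTR, SERPINA1, APOC3 and F2 were not called. The medians of ALB, 25.0 TPM in MAD and 30.1 TPM in RAD, differed by far less than its maxima, 966.5 and 2035 TPM. The part of liver transcripts in the other genes of RAD was not tested.

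To compare the chromatin of the ATs, the A-B index of 113298 bins of 20 kb on 18 autosomes was used, a score without unit that is above 0 in the open compartment A and below 0 in the closed compartment B. Between 43.7 and 50.1% of bins lay in A in MAD and between 45.97 and 50.1% in RAD. By limma, 18.4% of bins differed at an adjusted p below 0.05. Only 4 bins (0.00353%) switched, being in opposite compartments in over 80% of the samples of each AT. Bins that kept their compartment and moved by more than 0.75 (A/B variables) numbered 1044, or 0.921%, with 662 higher in MAD and 382 in RAD. Chromosome 10 held 413 of them. In 4 RAD libraries (replicates 35, 36, 37 and 45) the index of this chromosome ran opposite to the median profile, with a correlation down to -0.95, and 14 MAD and 19 RAD libraries correlated with it at less than 0.9. Without chromosome 10 there were 631 variable bins, 433 higher in MAD and 198 in RAD, and without the 4 libraries 567. No gene of chromosome 10 is described by its index below, and counts over all genes include that chromosome.

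The strongest switch lay beside NKX2-3. The bin chr14:110680001-110700000 was in A in 100% of MAD and in 5% of RAD samples, with a mean index of 1.24 ± 0.45 (SD, n = 37) in MAD and -0.58 ± 0.44 (SD, n = 40) in RAD. A single bin lies between it and the bin of the NKX2-3 start, whose promoter is printed above. That start bin ranged from 0.327 to 3.10 in MAD (median 2.11) and from -0.70 to 0.79 in RAD (median 0.080). It was in A in 37 of 37 MAD and 22 of 40 RAD samples, and the difference of RAD minus MAD was -1.86 ± 0.12 (SE, adjusted p = 2.88e-20, limma). The genes of the other switches are named by their position. These bins were chr1:134140001-134160000, in MEIS2 and in A in 83.8% of MAD and 10% of RAD samples, chr15:38600001-38620000, in WDR17 and in A in 83.8 and 12.5%, and chr4:90760001-90780000, with no named gene in it and in A in 18.9 and 87.5%. These 3 differed less, by -0.82, -0.91 and 0.67.

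**Figure D4:**
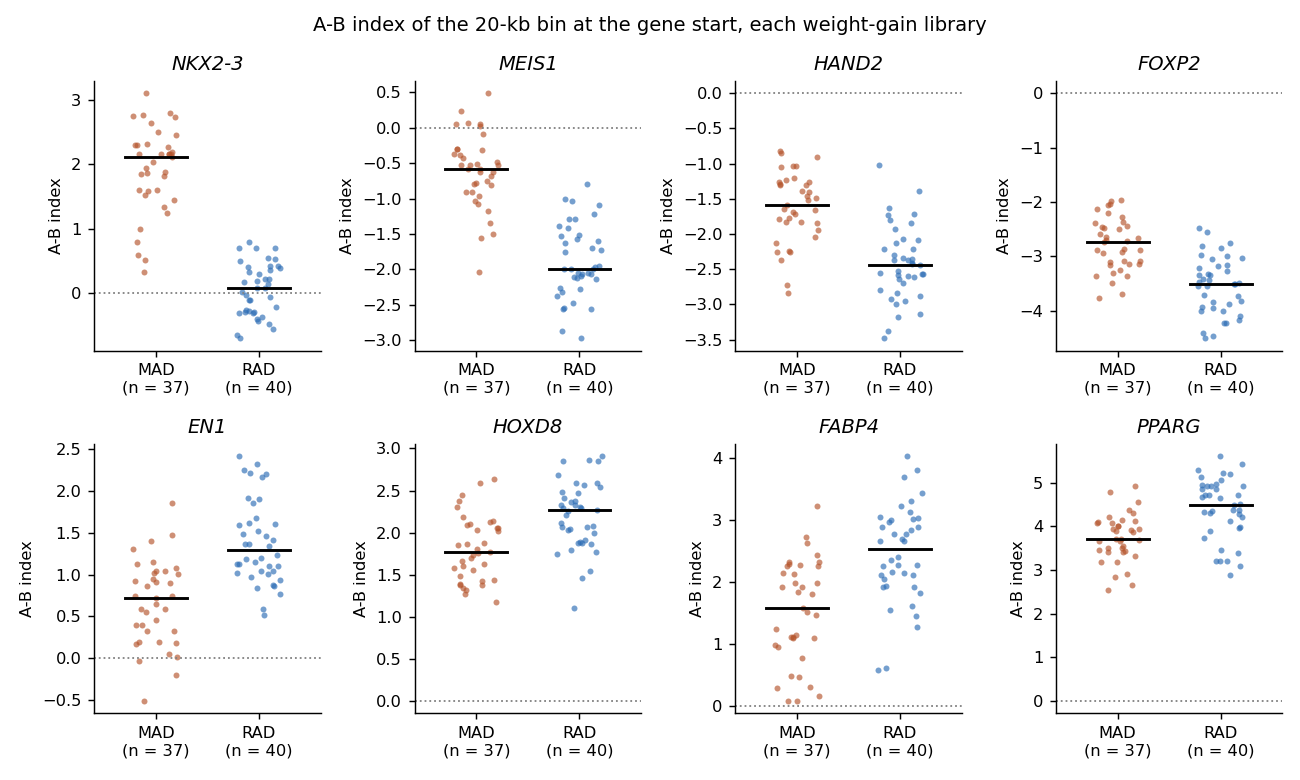
A-B index of the 20-kb bin at the start of 8 genes in each WG Hi-C library; each point is 1 library, MAD (n = 37) or RAD (n = 40), the bars are medians, and the dotted line at 0 divides compartment A (above) from B. NKX2-3, MEIS1, HAND2 and FOXP2 sit higher in MAD and EN1, HOXD8, FABP4 and PPARG higher in RAD, with overlap in each.

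Variable bins lay in runs. Apart from chromosome 10, the longest run higher in MAD spanned 63 bins at chr3:74980001-76280000 and held the start of MEIS1, a partner of HOX proteins. The start bin of MEIS1 lay between -2.03 and 0.485 in MAD and between -2.98 and -0.79 in RAD, and its index differed by -1.27 ± 0.12 (adjusted p = 1.69e-13). Its expression was higher in MAD too (log2 fold change -0.62 ± 0.08). A run of 26 bins at chr18:31360001-31900000 held FOXP2, a forkhead factor, with an index difference of -0.75 ± 0.12 and a log2 fold change of -2.21 ± 0.15. Runs of 19 bins at chr3:119660001-120060000 and of 17 at chr2:45000001-45360000 held KCNS3, a potassium channel subunit (index -1.20 ± 0.11), and SPON1, a matrix protein (-1.06 ± 0.13), both also DEGs of MAD. The start bin of HAND2 differed by -0.80 ± 0.12. All but NKX2-3 among these genes stayed in B in most samples of both ATs, so the index rose in MAD without a switch.

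RAD had fewer and shorter runs. The start bin of FABP4, the fatty acid carrier of fat cells, ranged from 0.0828 to 3.22 in MAD (median 1.58) and from 0.582 to 4.03 in RAD (median 2.53), a difference of 0.94 ± 0.18 (adjusted p = 8.18e-05). The expression of FABP4 was not called (log2 fold change 0.40). PPARG behaved alike, with an index of 2.55 to 4.92 in MAD (median 3.72) and 2.89 to 5.61 in RAD (median 4.50), a difference of 0.66 ± 0.14 (adjusted p = 4.61e-04). EN1 had both a higher index in RAD (0.72 ± 0.11, adjusted p = 2.49e-06) and a higher expression, and so did CXCL2 (0.86 ± 0.13), RASSF6 (0.77 ± 0.10), the bin shared by CCL4 and CCL3L1 (0.89 ± 0.15), TBX5 (0.54 ± 0.11), HOXD8 (0.39 ± 0.09) and HOXD3 (0.37 ± 0.10). HOXA2 (-0.54 ± 0.09), HOXB5 (-0.41 ± 0.08) and TCF21 (-0.44 ± 0.11) had both measures higher in MAD. The index did not follow expression for every gene. DES, without overlap in expression, had an index difference of -0.24 ± 0.13 (adjusted p = 0.202), and COL1A1 and COL1A2 had the higher index in MAD (-0.44 ± 0.12 and -0.45 ± 0.12) and the higher expression in RAD.

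Over all DEGs, index and expression leaned the same way, though the index came from the adipocyte layer and expression from whole tissue. The median index difference at the start was 0.075 for 191 DEGs of RAD and -0.098 for 391 DEGs of MAD, against 0.027 for 9695 PCGs that were not called. It was above 0 for 66.5, 33.8 and 56.2% of these genes. At an adjusted p below 0.05, the index was higher in RAD for 20.9% of the DEGs of RAD, 6.14% of those of MAD and 8.41% of the PCGs not called. It was higher in MAD for 4.71, 22.3 and 5.26% of them. The start of only 12 DEGs lay in a variable bin and of 0 in a switch bin.

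The H3K27ac mark of active enhancers was deposited as regions called on pools of libraries, 3 pools of MAD and 2 of RAD, so no test was made. A pool held 18143 to 25398 regions, ranked by signal from 1 upward. Of 10277 PCGs tested, 67.3% had a region within 10 kb in all 5 pools and 6.97% in none. These shares were 62.7 and 7.67% for 391 DEGs of MAD and 53.9 and 11.5% for 191 DEGs of RAD. TBX18 had regions in both RAD pools and in no MAD pool. Since the pools differ in their number of regions, ranks are given as a description. NKX2-3 had 1 region in each pool, ranked 1329 to 2222 in MAD and 8223 and 8230 in RAD. TCF21 had a region ranked 3414 to 6636 in MAD, 16376 in 1 RAD pool and none in the other. The region of EN1 ranked 3166 and 2227 in RAD and 14475 to 20894 in MAD. Other DEGs did not follow expression. The best region of PCK1, higher in MAD, ranked 153 and 60 in RAD and 1557 to 5900 in MAD. That of DES, higher in MAD, ranked 9470 and 4939 in RAD and 11263 to 19111 in MAD. HOXA9, higher in RAD, ranked 90, 1138 and 169 in MAD and 432 and 714 in RAD. How often ranks followed expression over all DEGs was not counted. MMP27, higher in RAD, had a region in 1 MAD pool only, at rank 14015, and FGF10 had no region within 10 kb in any pool.

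The same contrast was then read in animals on the other diets. Of the 237 DEGs of RAD, 223 (94.1%) had the same direction in NC and 220 (92.8%) in WL. Of the 495 DEGs of MAD, 445 (89.9%) and 459 (92.7%) did. Fewer also passed as DEGs in that direction: 83 in NC and 84 in WL for RAD, and 228 and 229 for MAD. Over all 13548 PCGs tested, 152 in NC and 230 in WL were higher in RAD, and 420 and 737 in MAD. These counts include NC MAD replicate 1 and WL MAD replicates 1, 6 and 7. Without them, and so with fewer samples, fewer PCGs differed between the ATs on each diet, as given below. How many of the shared DEGs then remained was not counted. NKX2-3 was at -9.48 in NC and -8.77 in WL, TCF21 at -4.42 and -4.49, EN1 at 3.08 and 3.18 and MMP27 at 3.26 and 3.96 on the log2 scale, each past the threshold on both diets. The index at NKX2-3 differed by -1.93 in NC and -1.68 in WL.

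Some genes differed between the ATs in WG more than on the normal diet. A test of the difference between diets called 118 of 14396 PCGs against NC (0.82%) and 399 against WL (2.77%). PCGs took under 90% of TPM in 2 of 12 NC MAD and 6 of 12 NC RAD libraries. In WL they did so in 7 of 10 MAD and 3 of 10 RAD libraries. With this share as a term, 104 and 376 PCGs were called. NEGR1, a cell adhesion protein, ranged from 0.351 to 2.88 TPM in WG MAD and from 1.25 to 15.6 TPM in WG RAD (2.37 ± 0.19), and in NC the medians were 2.88 TPM in MAD and 3.44 TPM in RAD. The difference between the diets was 2.22 ± 0.38 (adjusted p = 4.73e-05). PTGFR, the receptor of prostaglandin F, had a log2 fold change of 1.69 ± 0.16 in WG and 0.15 in NC, a difference of 1.56 ± 0.34 (adjusted p = 0.00259). Both differences passed without NC MAD replicate 1 as well, at 2.07 (adjusted p = 0.00196) and 1.58 (adjusted p = 0.0105). POSTN had a log2 fold change of -0.54 in NC and a difference of 2.88 ± 0.61 from it in WG (adjusted p = 0.00221), but it stood at 415 TPM in that NC library. Without it the NC value was 0.42 and the difference of 1.91 did not pass (adjusted p = 0.190). HAND2 lost its difference of 2.42 in the same way (1.57, adjusted p = 0.222). EMX2 was higher in RAD by 3.50 in NC and by 1.17 in WG, a difference of -2.33 (adjusted p = 0.00259). WNT2B was higher in MAD in WG alone among the diets by point estimate (0.23 in NC and 0.04 in WL), and both differences, which share the WG libraries, passed (adjusted p = 0.00534 and 0.0246), the second only with the 3 WL libraries named below.

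The counts of that test rested on few libraries. In NC, MAD replicate 1 had a smooth muscle sum of 21290 TPM against a median of 1536 TPM, and without it, a choice made after seeing the data, 44 PCGs differed between WG and NC. Smooth muscle genes gave 7 of 16 calls with it and 5 without it, all with a smaller lead of MAD in WG. In WL, MAD replicates 1, 6 and 7 had the highest B cell sums, up to 7903 TPM against a median of 218 TPM. With them, 16 of 17 T cell genes and 6 of 11 B cell genes differed between WG and WL. Without them, 0 PCGs did by edgeR, with 274 at an unadjusted p below 0.05, and DESeq2 was run only with them (471).

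**Figure D5:**
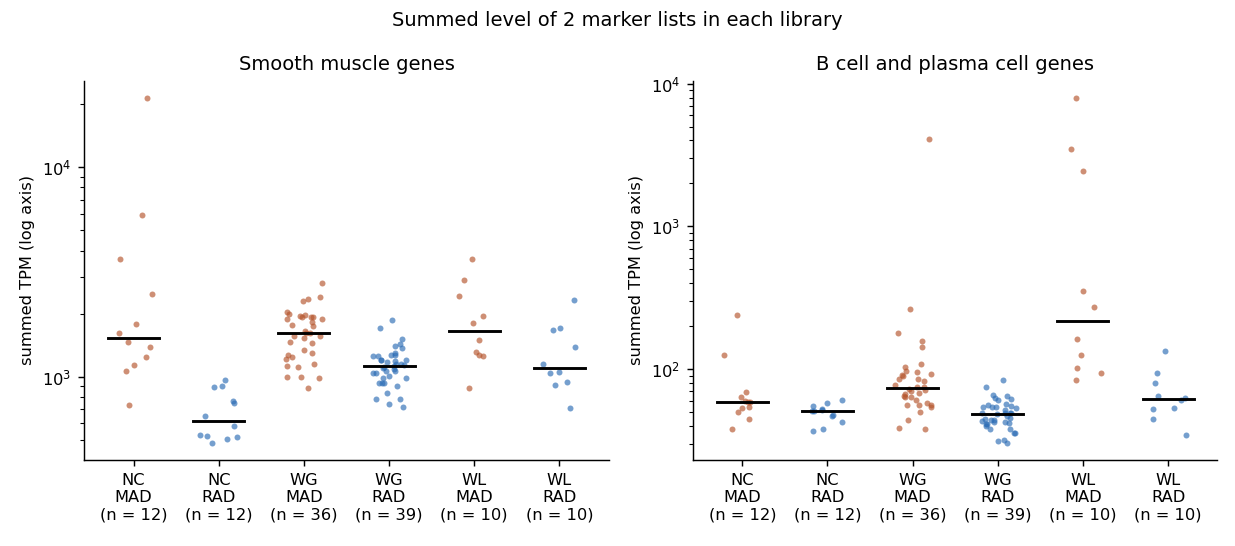
Summed TPM of the smooth muscle list and of the B cell and plasma cell list in each library of MAD and RAD on the 3 diets, on log axes; each point is 1 library and the bars are medians. NC MAD replicate 1 stands apart in smooth muscle genes at 21290 TPM, and WG MAD replicate 31 (4098 TPM) and 3 WL MAD libraries (up to 7903 TPM) stand apart in B cell genes.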

How the data were processed

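RNA-seq, Hi-C and H3K27ac ChIP-seq of MAD and RAD were used as deposited. The authors estimated transcript abundance with kallisto 0.43.0 on Sscrofa11.1 and summed it by gene with tximport, and the deposited tables hold estimated counts and TPM of 21280 PCGs, 14821 of them with a symbol. The A-B index, a score per 20-kb bin without unit, was derived by the authors from Hi-C contact maps after balancing and a quantile normalization across samples. The ROSE signal of enhancer regions, with its rank and super-enhancer mark, was made by the authors from BWA 0.7.15, SAMtools 1.3.1 and SICER output on pooled libraries. Its scaling between tables is not given in the sources used here, so only ranks within a table were read. Columns that match no deposited sample (9 in the count table and 9 in the index table) were left out, as were TAD calls, the other ATs and the noncoding RNA tables, apart from the share of TPM. Some items are not reported here.

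Samples were grouped by their labels. Counts were rounded and tested with edgeR 4.0.16 (TMM, quasi-likelihood) in R 4.3.3, WG MAD against WG RAD without covariates, over PCGs that exceeded 0.5 TPM in 80% or more of the libraries of either AT. The contrast was tested against that of NC and WL in a fit of all 6 groups. The index was tested with limma 3.58.1 over all bins. p-values were adjusted by the Benjamini-Hochberg method over all features. Fold changes are RAD over MAD. The settings varied were the tool (DESeq2 1.42.0 or the exact test of edgeR), upper-quartile scaling, no filter, limma on log2(TPM + 1) and log2(TPM + 0.1), the replicate number as a block, a term for the share of TPM on PCGs, libraries left out, and other index thresholds. The edgeR and limma steps were tested on simulated data.

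Members, gene lists and rules were chosen with earlier results of these data known. Genes named were, among DEGs with a symbol, the 12 largest changes per direction at a mean of at least 5 TPM, up to 4 DEGs per direction of each of 55 lists (any member of HOX, adipocyte identity and cell marker lists), up to 5 per direction from each diet test and up to 10 per direction from variable bins, and PPARG.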

Additional observations from a re-analysis of the deposited data

Results flagged for a closer look

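A test of the difference between diets picked out 20 genes, up to 5 per direction for each diet. All values are log2 differences of the RAD over MAD change, WG minus the other diet, and those against NC and WL share the WG libraries. Against NC, MAD led by less in WG for 5 genes, most of them of the contractile apparatus: the kinase MYLK (2.86, from -3.79 in NC to -0.94 in WG), the tropomyosin TPM2 (2.845), calponin CNN1 (3.68), PGM5 (2.165) and the calcium channel subunit CACNB2 (2.34). Each had an adjusted p of at most 1.37e-05. Without NC MAD replicate 1, which held the highest smooth muscle sum, the 5 differences were 1.36 to 2.34 and all passed (largest adjusted p 0.0105). In the other direction stood C1QTNF4 (-2.82), the homeobox gene EMX2 (-2.33), ZNF599 (-1.12), the ligand WNT2B (-1.44) and GAS2 (-1.52), which passed without that library too (largest adjusted p 0.0348). C1QTNF4 moved from 1.85 in NC to -0.97 in WG. The part of the amount of smooth muscle in these differences was not tested.

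Against WL, SHISA3 (2.22) moved from -1.61 in WL to 0.61 in WG, where RAD was higher. MAD led by less in WG for the T cell adaptor GRAP2 (2.25), the interleukin receptor IL21R (3.33), the T cell regulator UBASH3A (2.535) and FGD3 (1.97). In the other direction stood the proteoglycan VCAN (-1.03), the microfibril gene FBN1 (-1.36), the oxidases NOX4 (-1.20) and NOX5 (-1.70), and ISLR2 (-2.15). Without WL MAD replicates 1, 6 and 7, which held the highest B cell sums, none of the 10 passed (edgeR, smallest adjusted p 0.895). The differences of the first 5 were then 0.11 to 0.68. Those of the other 5 kept most of their size, at -0.95 for VCAN, -1.14 for FBN1, -1.03 for NOX4, -1.45 for NOX5 and -1.86 for ISLR2.

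Only groups of 4 to 10 libraries were examined in this way, which left out those of WG and NC: 4 marker sums and 10 genes in WL MAD and in WL RAD, 28 groups in all. In 3 of them 1 library stood far from the rest. Chance gives about 1 in 20 in groups that were not chosen by their values. The 10 genes came from a test that used these same libraries, so that rate is no fair comparison for the 28 groups. WL MAD replicate 7 had a summed B cell level of 7903 TPM, and the nearest library had 3499 TPM. WL RAD replicate 2 had 0.872 TPM of GRAP2 against 0.485 TPM in the nearest. WL MAD replicate 2 had 36.4 TPM of VCAN against 21.1 TPM in the nearest.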

How the results depend on the processing

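Against 732 DEGs (237 higher in RAD and 495 in MAD), 1468 were called with no filter on low genes (423 and 1045) and 465 with limma on log2(TPM + 1), of which 306 were higher in MAD. The other settings gave 678 to 791. With the replicate block, on 31 pairs of equal number, 720 were called (261 and 459, 621 of them among the 732), and 678 without it in the same samples. At an adjusted p below 0.05 alone (edgeR), 4373 PCGs passed with the block and 1664 without it in the same samples. Samples of equal number correlated at a median r of 0.659 and others at -0.10, and 30 of the 31 pairs exceeded 0.1. Of the 31 samples of each AT, 22 in MAD and 21 in RAD correlated best with their own number. The design holds ATs of the same pigs, but the labels do not state that equal numbers mark them. The block was therefore kept as an alternative. The index gave 18 of 32 pairs above 0.1 and 748 variable bins with the block. The following were chosen after seeing the data. Leaving out MAD replicate 19, 31 or 39 gave 718 to 727 DEGs, 233 to 255 higher in RAD and 464 to 494 in MAD. Of 150 named DEGs, 2, 9 and 4 lost their call (33 with log2(TPM + 1), 18 with log2(TPM + 0.1) and 15 with the replicate block, where 2 and not 6 T cell genes were called), and LRP2 ranged from -1.93 to 0.55 and so turned without replicate 39. Without NC MAD replicate 1, 427 PCGs differed between the ATs in NC (463 higher in MAD and 185 in RAD with it) and 44 and not 118 between the diets. Without WL MAD replicates 1, 6 and 7, 167 differed in WL (859 and 237 with them) and 0 and not 399 between the diets by edgeR (274 at an unadjusted p below 0.05), with fewer samples. Switch bins numbered 4, and 78 at 70% against 30% of samples. Against 1044 variable bins, 4657 were called at a difference above 0.5, 661 at an adjusted p below 0.01, 631 without chromosome 10 and 567 without the 4 RAD libraries reversed on it. Beyond these constructions, the cause was not tested. The enhancer pools and the index come without counts, so their depth is unknown.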

Other observations

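Of 6 nerve and glia genes tested, SOX10, the factor of Schwann cells, and the adhesion molecule NCAM1 were higher in MAD (log2 fold changes -0.65 ± 0.21 and -1.45 ± 0.20), and the sum of 14 such genes was 66.0 to 295 TPM in MAD and 40.3 to 303 TPM in RAD. KIT, the receptor of mast cells, was the DEG among 3 mast cell genes and was higher in RAD (0.84 ± 0.13). The clock gene NFIL3 and the immediate early gene CCN1 were the DEGs of their lists of 17 and 18 genes, both higher in RAD (0.62 ± 0.16 and 0.68 ± 0.14). Of 16 genes of lipid-associated macrophages, CHI3L1 was higher in MAD (-0.89 ± 0.23) and 14 had a log2 fold change above 0. A single call in lists of 16 to 18 genes is near the 5.4% called over all PCGs tested, so it does not set these lists apart. The macrophage sum was 516 to 2724 TPM in MAD and 634 to 4189 TPM in RAD.

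The red blood cell sum ranged from 319.5 to 18120 TPM in MAD and from 463 to 6216 TPM in RAD, and 0 of 4 such genes were DEGs by edgeR.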
